A study of Homo sapiens with 12 samples.

Results

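The transcripts of 10 regulators of pre-mRNA splicing were followed in multiple myeloma cells exposed to withaferin A (WA). They are the kinases CLK1, CLK2, CLK3 and CLK4, the SR proteins SRSF2, SRSF3, SRSF6 and SRSF7, and the related proteins TRA2A and TRA2B. They were chosen by gene symbol, with earlier results of these data known, as 10 of the 43735 entries of the deposited count table. Counts of members that passed are therefore descriptions. Of the 10, 9 had enough reads to be tested among 14085 genes. CLK2 was not tested, because it was listed at 0 reads in all 12 libraries.

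MM1S and MM1R are plasma cell cancer lines derived from a single patient, of which MM1S is sensitive and MM1R resistant to glucocorticoids. WA is a steroidal lactone of the plant Withania somnifera that binds cysteine residues of proteins. RNA was sequenced from 4 groups of 3 cultures, namely untreated MM1S, MM1S with 1 µM WA for 3 h, untreated MM1R and MM1R with the same exposure. The replicates were cultures of passages 16, 22 and 23 for MM1S and 4, 6 and 7 for MM1R, and each passage gave 1 untreated and 1 WA culture. Cell line and passage cannot be told apart, since the lines shared no passage number, and glucocorticoid sensitivity and resistance are each represented by 1 line.

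CDC-like kinases (CLKs) sit in the nucleus and phosphorylate the serine-arginine repeats of SR proteins. This phosphorylation releases SR proteins from nuclear speckles and sets where they act on pre-mRNA. SR proteins and TRA2 proteins bind exonic enhancers and recruit the splicing machinery to nearby splice sites. Many of these genes limit their own product through a poison exon, whose inclusion sends the transcript to nonsense-mediated decay, and CLK1 transcripts with retained introns are known to stay in the nucleus until stress or loss of CLK activity leads to their splicing.

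Libraries held 17625110 to 19368343 reads counted on genes. The 9 plasma cell markers were present in every library, with JCHAIN at 5170 to 12700 CPM (read counts normalised to the library total, here after TMM scaling). Among the markers of other cell types, CD3D, CD14, LYZ, MS4A1 and PAX5 stayed under 0.5 CPM, while CD3E reached 11.6, COL1A1 17.9 and PECAM1 24.7 CPM. Their summed level was 19.2 to 33.5 CPM in untreated MM1S, 22.2 to 32.1 in MM1S with WA, 30.1 to 36.6 in untreated MM1R and 32.8 to 40.6 in MM1R with WA. Single markers moved with WA in both lines. COL1A1, a collagen gene of fibroblasts, was at 0.448 to 1.09 CPM in untreated MM1S and 2.30 to 6.55 with WA, and at 1.46 to 2.34 in untreated MM1R and 5.23 to 17.9 with WA, the highest value being that of passage 7 (adjusted p = 0.0045 in MM1S and 0.0039 in MM1R by edgeR). Of the plasma cell markers, IRF4, a transcription factor that myeloma cells need, fell from 1028 ± 199 to 620.3 ± 147 CPM in MM1S and from 1117 ± 122 to 576 ± 47.9 in MM1R (SD, n = 3, adjusted p = 0.019 and 0.0032 by edgeR), SLAMF7 rose (0.53 and 0.40 on the log2 scale, adjusted p = 0.0069 and 0.026), and the other 7 did not pass. The part of these transcripts in the results below was not tested. The 10 most abundant genes took between 5.63% and 11.01% of the reads, the highest share being that of MM1R with WA at passage 7.

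Exposure to WA raised CLK1 and lowered CLK3 and SRSF2 in both lines, and raised SRSF3 in MM1R. In bulk RNA, a change in the share of cells that express a gene and a change in the RNA per cell cannot be told apart. In MM1R, 4 of the 9 tested members passed at an adjusted p of 0.05 (quasi-likelihood test of edgeR, adjusted by Benjamini-Hochberg over all 14085 genes, n = 3 cultures per group). Of all tested genes, 14.0% passed in MM1R, 7.55% higher and 6.46% lower with WA. In MM1S, 3 of the 9 members passed, against 10.5% of all tested genes, 6.25% higher and 4.23% lower. The median log2 fold change of the 9 members was 0.14 in MM1R and 0.14 in MM1S, and that of all tested genes was 0.01 in MM1R and 0.01 in MM1S. For 5 members (CLK1, SRSF3 and TRA2A higher, CLK3 and SRSF2 lower) the 3 WA and the 3 untreated cultures did not overlap, in either line. Among all tested genes the cultures did not overlap for 33.3% in MM1R and 30.3% in MM1S. When the edgeR fit was blocked on passage, these 5 members passed in both lines, against 29.1% of all tested genes in MM1R and 24.1% in MM1S. With the same block in DESeq2 they passed in MM1R, while in MM1S CLK1 (adjusted p = 0.063) and TRA2A (0.085) did not. That fit called 3424 of all 14085 genes in MM1R and 2930 in MM1S.

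**Figure D1:**
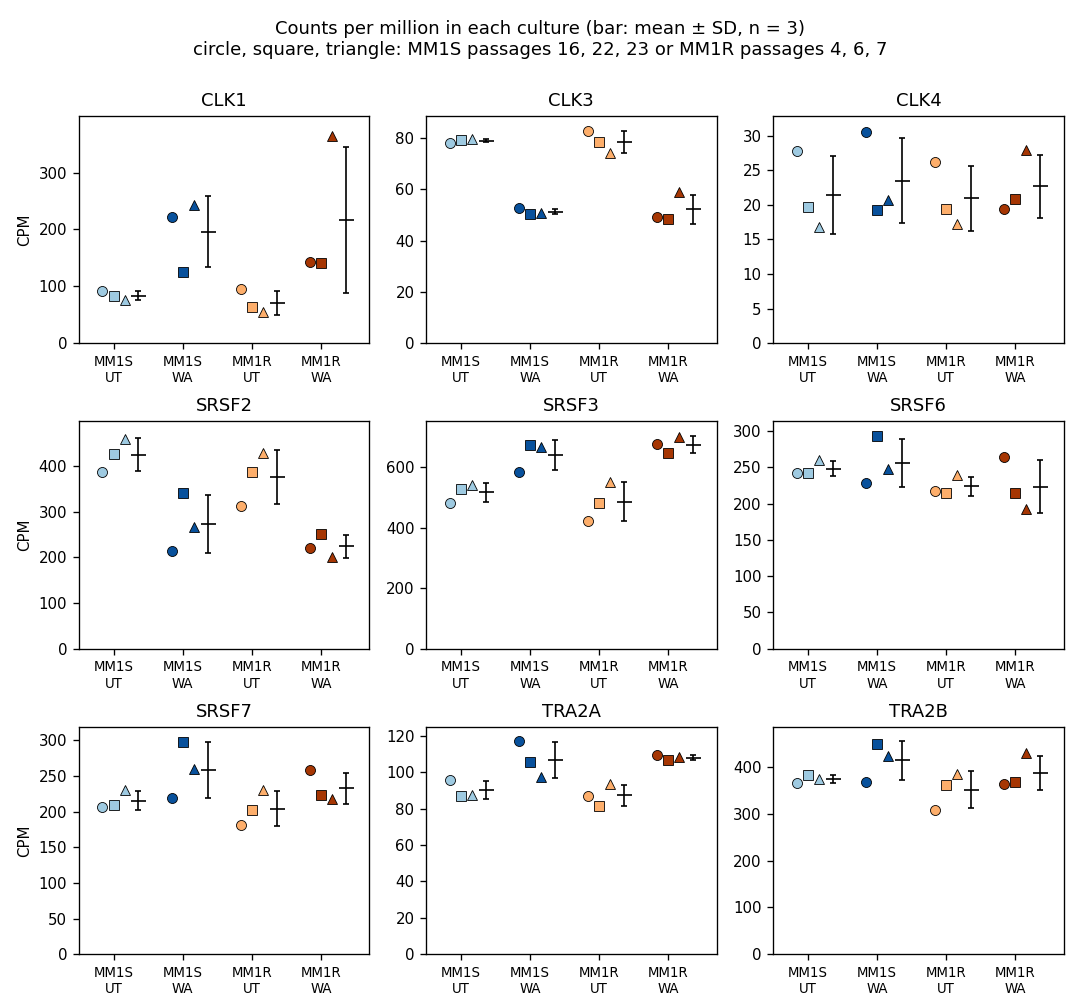
CPM of the 9 tested members in each culture, by line and treatment, with the mean and SD of 3 cultures beside the points and axes that start at 0. CLK1 lies higher and CLK3 and SRSF2 lie lower in all WA cultures than in the untreated cultures of the same line.

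Among the kinases, CLK1 showed the largest change of the 9 tested members. CLK1 (ENSG00000013441) lies on the minus strand at chr2:201717732-201729414 of GRCh37 with 13 exons in the canonical transcript. In MM1S it was at 92.3, 83.1 and 75.6 CPM in the untreated cultures of passages 16, 22 and 23 and at 221, 126 and 242 CPM with WA. In MM1R it was at 95.4, 63.2 and 54.9 CPM in the untreated cultures of passages 4, 6 and 7 and at 143, 141 and 365 CPM with WA. All WA cultures exceeded all untreated cultures, and the culture of passage 7 stood far above the other MM1R cultures with WA. The log2 fold change was 1.60 in MM1R (SE 0.34, adjusted p = 0.0078 by edgeR) and 1.23 in MM1S (SE 0.34, adjusted p = 0.035 by edgeR). In MM1R the log2 fold change was 1.02 without the WA culture of passage 7 (adjusted p = 0.029 by edgeR). In MM1S the call was lost without the untreated culture of passage 16 (adjusted p = 0.057), 22 (0.11) or 23 (0.12), without the WA culture of passage 16 (0.084) or 23 (0.12), and without untreated MM1R of passage 6 (0.051).

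CLK3 moved in the opposite direction. This kinase is of the same family, and its gene (ENSG00000179335) lies on the plus strand at chr15:74890841-74937755 of GRCh37 with 13 exons. In MM1S it was at 78.2, 79.2 and 79.6 CPM in the untreated cultures of passages 16, 22 and 23 and at 52.6, 50.5 and 50.9 CPM with WA. In MM1R it was at 82.6, 78.4 and 74.2 CPM in the untreated cultures of passages 4, 6 and 7 and at 49.2, 48.6 and 58.8 CPM with WA. No WA culture reached the level of any untreated culture. On the log2 scale CLK3 changed by -0.59 in MM1R (SE 0.10, adjusted p = 0.0019 by edgeR) and by -0.62 in MM1S (SE 0.10, adjusted p = 0.0014 by edgeR). CLK3 passed at an adjusted p of 0.05 under every alternative of the processing in both lines, with adjusted p-values of at most 0.013 with any library left out. The exons of CLK3 share 701 bases with those of EDC3 on the other strand, and the strand setting of the counting is not given in the sources used here. EDC3 itself, with 927 to 1240 reads per library, was at -0.14 on the log2 scale with WA in MM1R (adjusted p = 0.46 by edgeR) and at 0.09 in MM1S (adjusted p = 0.68).

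CLK4, the closest relative of CLK1 in the family, was the least abundant tested member in CPM. The gene (ENSG00000113240) lies on the minus strand at chr5:178029665-178057616 of GRCh37. In MM1S it was at 27.7, 19.7 and 16.9 CPM in the untreated cultures of passages 16, 22 and 23 and at 30.6, 19.3 and 20.6 CPM with WA. In MM1R it was at 26.1, 19.4 and 17.3 CPM in the untreated cultures of passages 4, 6 and 7 and at 19.4, 20.9 and 27.9 CPM with WA. The treated and untreated cultures overlapped in both lines. Its log2 fold change was 0.12 in MM1R (95% interval -0.38 to 0.61, adjusted p = 0.80 by edgeR) and 0.13 in MM1S (-0.36 to 0.62, adjusted p = 0.79). The exons of CLK4 share 161 bases with the small RNA gene RN7SKP70 on the same strand.

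CLK2 (ENSG00000176444, minus strand, chr1:155232659-155248282 of GRCh37) was listed at 0 reads in every library. The table holds a further numbered entry of the same symbol, which was also at 0 in all libraries. The neighbouring genes FAM189B, SCAMP3 and HCN3 were listed at 0, at most 1 and at most 4 reads per library, and the pseudogene CLK2P1 at 0 to 5. Of 1231 protein-coding symbols with a further numbered entry in the table, 52.7% were at 0 in all libraries, against 13.5% of 17620 other protein-coding symbols. The part of the double entries in the value of CLK2 was not tested, and no level of CLK2 is given.

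SRSF2 fell in both lines. It is a core constituent of nuclear speckles, and its gene (ENSG00000161547) lies on the minus strand at chr17:74730197-74733415 of GRCh37 with 3 exons. In MM1S it was at 387, 427 and 459.5 CPM in the untreated cultures of passages 16, 22 and 23 and at 214, 339.8 and 266 CPM with WA. In MM1R it was at 312, 386 and 429 CPM in the untreated cultures of passages 4, 6 and 7 and at 221, 251 and 201 CPM with WA. The groups did not overlap in either line, and in MM1S the WA culture of passage 22 came closest to the untreated level. On the log2 scale SRSF2 changed by -0.74 in MM1R (SE 0.16, adjusted p = 0.0091 by edgeR) and by -0.64 in MM1S (SE 0.16, adjusted p = 0.026 by edgeR). The call was lost in MM1R without the WA culture of passage 7 (adjusted p = 0.054), and in MM1S without the untreated culture of passage 22 (0.079) or 23 (0.10), without the WA culture of passage 16 (0.087) or 23 (0.084), and in a fit of the 6 MM1S libraries alone (0.052). The exons of SRSF2 share 823 bases with MFSD11 on the other strand, and MFSD11, with 560 to 774 reads per library, was at 0.14 on the log2 scale with WA in MM1R (adjusted p = 0.44) and 0.09 in MM1S (adjusted p = 0.66).

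SRSF3, the smallest SR protein and an adaptor for mRNA export, was the most abundant member in CPM. The gene (ENSG00000112081) lies on the plus strand at chr6:36562130-36573377 of GRCh37 with 6 exons. In MM1S it was at 482, 528 and 542 CPM in the untreated cultures of passages 16, 22 and 23 and at 584, 673 and 667 CPM with WA. In MM1R it was at 423, 481 and 552 CPM in the untreated cultures of passages 4, 6 and 7 and at 676, 647 and 701 CPM with WA. All WA cultures lay above all untreated cultures of the same line. The log2 fold change was 0.47 in MM1R (SE 0.12, adjusted p = 0.015 by edgeR), and without the untreated culture of passage 6 it no longer passed (adjusted p = 0.083). In MM1S the log2 fold change was 0.31 (SE 0.12), which did not pass in the unblocked edgeR fit (adjusted p = 0.10) and passed when blocked on passage (adjusted p = 0.013 by edgeR and 0.0095 by DESeq2).

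SRSF6 and SRSF7, which also bind exonic enhancers, did not pass in either line. SRSF6 (ENSG00000124193, plus strand, chr20:42086533-42094686 of GRCh37) ranged from 242 to 260.0 CPM in untreated MM1S, from 229 to 293 in MM1S with WA, from 215 to 239 in untreated MM1R and from 193 to 264 in MM1R with WA. SRSF7 (ENSG00000115875, minus strand, chr2:38970741-38978636 of GRCh37) ranged from 207 to 231 CPM in untreated MM1S, from 219 to 297 in MM1S with WA, from 181 to 230.0 in untreated MM1R and from 218 to 258 in MM1R with WA. The groups overlapped in both lines for both genes. The exons of SRSF6 share 654 bases with those of the unnamed protein-coding gene ENSG00000288000 on the same strand. The log2 fold change of SRSF6 was 0.00 in MM1R (95% interval -0.27 to 0.28) and 0.05 in MM1S (-0.23 to 0.32), and that of SRSF7 was 0.19 in MM1R (-0.09 to 0.47) and 0.26 in MM1S (-0.01 to 0.54). Their adjusted p-values by edgeR were 1 and 0.87 for SRSF6 and 0.38 and 0.23 for SRSF7.

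The transformer homologues TRA2A and TRA2B bind purine-rich enhancers together with SR proteins. TRA2A (ENSG00000164548) lies on the minus strand at chr7:23544399-23571660 of GRCh37 with 8 exons. In MM1S it was at 95.7, 87.1 and 87.7 CPM in the untreated cultures of passages 16, 22 and 23 and at 117, 106 and 97.2 CPM with WA. In MM1R it was at 86.9, 81.7 and 93.4 CPM in the untreated cultures of passages 4, 6 and 7 and at 109, 107 and 108 CPM with WA. The groups did not overlap in either line, and the MM1R cultures with WA lay within 3 CPM of each other. The log2 fold change was 0.31 in MM1R (SE 0.10, adjusted p = 0.056 by edgeR) and 0.24 in MM1S (SE 0.10, adjusted p = 0.14 by edgeR). Blocked on passage, TRA2A passed in MM1R (adjusted p = 0.012 by edgeR) and in MM1S (adjusted p = 0.044 by edgeR, 0.085 by DESeq2). In MM1R it also passed by DESeq2 without a block (adjusted p = 0.025), with at least 10 reads required in every library (0.031) and without the MM1S culture with WA of passage 16 (0.04).

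TRA2B (ENSG00000136527, minus strand, chr3:185632346-185655891 of GRCh37) ranged from 367 to 384 CPM in untreated MM1S, from 369 to 449.7 in MM1S with WA, from 309 to 386 in untreated MM1R and from 365 to 430.1 in MM1R with WA. The groups overlapped in both lines. Its log2 fold change was 0.14 in MM1R (95% interval -0.11 to 0.39, adjusted p = 0.49 by edgeR) and 0.14 in MM1S (-0.10 to 0.39, adjusted p = 0.50).

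**Figure D2:**
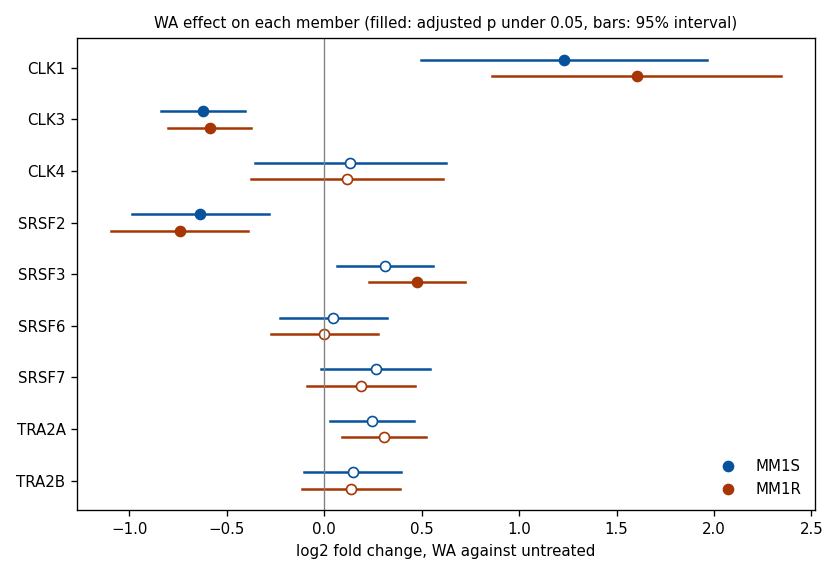
Log2 fold change of WA against untreated cultures for the 9 tested members in MM1S and MM1R, with 95% intervals, and filled points where the adjusted p by edgeR was under 0.05. CLK1 lies at 1.23 in MM1S and 1.60 in MM1R, SRSF2 and CLK3 lie between -0.74 and -0.59, and the other members lie between 0.00 and 0.47.

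Because each passage gave an untreated and a WA culture, the change could also be read within a passage, as the difference of log2(CPM + 0.5). CLK1 changed by 1.26, 0.59 and 1.67 in MM1S of passages 16, 22 and 23 and by 0.59, 1.15 and 2.72 in MM1R of passages 4, 6 and 7. SRSF2 changed by -0.85, -0.33 and -0.79 in MM1S and by -0.50, -0.62 and -1.09 in MM1R, in the same order of passages. In MM1R the passages had the same order for the rise of CLK1 and the fall of SRSF2, and in MM1S passage 22 had the smallest change of both. CLK3 changed by -0.57, -0.64 and -0.64 in MM1S and by -0.74, -0.69 and -0.33 in MM1R. SRSF3 changed by 0.28, 0.35 and 0.30 in MM1S and by 0.67, 0.43 and 0.34 in MM1R, and TRA2A by 0.15 to 0.38 over the 6 passages. CLK1, SRSF3 and TRA2A were higher with WA in all 6 passages, as was TRA2B, whose differences were 0.01 to 0.24. CLK3 and SRSF2 were lower in all 6. CLK4, SRSF6 and SRSF7 differed in sign between passages of MM1R, where the passages ranged from -0.42 to 0.68, from -0.31 to 0.28 and from -0.08 to 0.51.

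**Figure D3:**
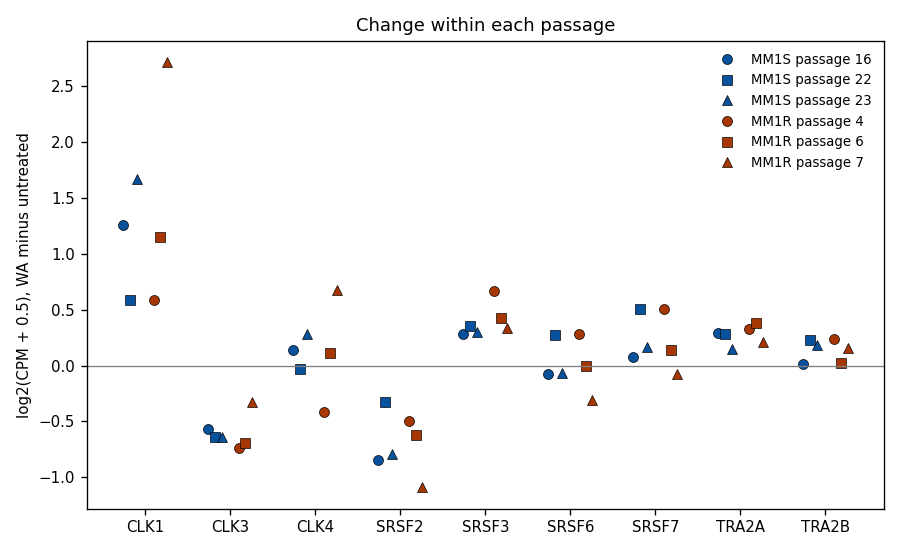
Difference of log2(CPM + 0.5) between the WA and the untreated culture of the same passage, for 9 members and 6 passages. CLK1 spreads from 0.59 to 2.72, while the CLK3 values lie between -0.74 and -0.33.

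Ratios of reads within a library, which do not depend on the scaling of libraries, separated treated from untreated cultures for both opposed pairs. CLK1 had 0.739 to 1.18 reads per CLK3 read in the 6 untreated cultures and 2.49 to 6.21 in the 6 cultures with WA. SRSF2 had 0.737 to 0.848 reads per SRSF3 read in the untreated cultures and 0.287 to 0.505 with WA. These ratios are a description of genes already known to differ, and no test was made on them.

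**Figure D4:**
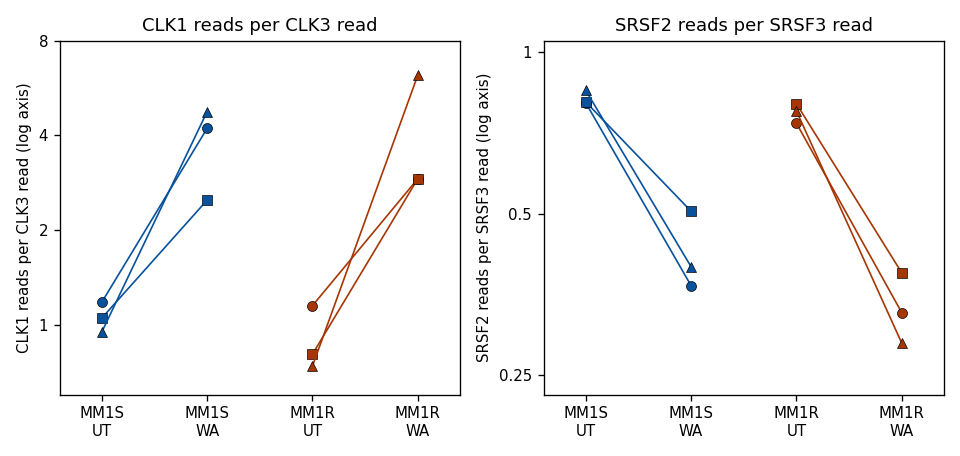
Reads of CLK1 per read of CLK3 and of SRSF2 per read of SRSF3 in each library on log axes, with lines joining the cultures of a passage and symbols for passages 16, 22 and 23 of MM1S or 4, 6 and 7 of MM1R. The first ratio is at most 1.18 in untreated and at least 2.49 in WA cultures, and the second is at least 0.737 in untreated and at most 0.505 in WA cultures.

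Levels of different members were compared as CPM per kilobase of the canonical transcript. In untreated MM1S the order was SRSF2 (224.8 ± 19.2, SD, n = 3), SRSF3 (122 ± 7.48), SRSF7 (91.4 ± 5.65), TRA2B (89.8 ± 2.0), SRSF6 (57.0 ± 2.36), TRA2A (50.5 ± 2.69), CLK1 (45.3 ± 4.54), CLK3 (42.6 ± 0.39) and CLK4 (8.56 ± 2.25). The ranges of SRSF7 and TRA2B, of TRA2A and CLK1, and of CLK1 and CLK3 overlapped. These genes were read in the same libraries, and the order within each pair was not tested. In MM1S with WA, SRSF3 stood at 152 ± 11.7 and SRSF2 at 145 ± 33.4, whose ranges overlapped. CLK1 was at 106 ± 33.6, in a range that overlapped those of SRSF2, SRSF7 and TRA2B. In MM1R, SRSF2 went from 199 ± 31.2 to 119 ± 13.3 and SRSF3 from 115 ± 15.2 to 159.6 ± 6.43 CPM per kilobase. CLK1 went from 38.5 ± 11.6 to 117 ± 69.6. With WA its range (76.4 to 198) overlapped those of SRSF2, SRSF3, SRSF7 and TRA2B. When all annotated exons were counted as the length, TRA2B at 28.7 lay below SRSF6 at 50.7 CPM per kilobase in untreated MM1S. In MM1S with WA, SRSF2 at 91.8 then lay above SRSF3 at 90.1. With WA, CLK3 lay below CLK4 in MM1S (2.6 and 2.97) and in MM1R (2.65 and 2.87). The order of the members thus rests on the length used.

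No member passed in a comparison of the lines. Between untreated MM1R and untreated MM1S, 0 of 9 members passed an adjusted p of 0.01 with a log2 fold change of 1 in size, the limits of the study, against 2.97% of all tested genes. The log2 fold changes of MM1R against MM1S were -0.23 for CLK1 (95% interval -0.96 to 0.50), -0.18 for SRSF2 (-0.53 to 0.17) and -0.15 for SRSF6 (-0.42 to 0.12), and those of the other 6 members were between -0.09 and -0.01. With WA in both lines, 0 of 9 members passed, against 3.04% of all tested genes, with SRSF2 at -0.28 (-0.64 to 0.07) and CLK1 at 0.14 (-0.58 to 0.86). By edgeR 0 members reached an unadjusted p of 0.05 in either comparison, and DESeq2 called 0.

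The effect of WA was not shown to differ between the lines for any member. The interaction term passed for 0 of 14085 genes, which is 0.0%, while 97 genes had an unadjusted p under 0.05 in edgeR and DESeq2 called 1 gene. Neither fit had a block on passage. With no difference in any gene, a share of about 0.05 of genes would be under that limit. The 97 genes are fewer than that share, so their count can show neither a difference nor its absence. With the block on passage, DESeq2 called 6 genes. Among the members the smallest unadjusted p was 0.33, that of SRSF3, whose effect was larger in MM1R by 0.16 on the log2 scale (95% interval -0.18 to 0.51). For CLK1 the difference was 0.37 (-0.65 to 1.40), and for CLK3 it was 0.03 (-0.27 to 0.34). The call of SRSF3 in MM1R and not in MM1S was thus not shown to be a difference between the lines.

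Both kinds of transcript that these genes are known for are listed in the GENCODE annotation of GRCh37. Of the 9 tested members, 9 have a transcript classed as nonsense-mediated decay, against 48.4% of 11689 tested protein-coding genes, and 8 (all but SRSF6) have one classed as retained intron, against 60.8%. CLK1 has 8 retained-intron and 2 decay transcripts of 14 in all, CLK3 has 8 and 3 of 27, SRSF2 has 4 and 2 of 11, SRSF3 has 4 and 2 of 8, and SRSF7 has 2 and 6 of 12. Counts per gene cannot tell these transcripts apart. The annotation used for the counts is not given, so which of these transcripts the values of each member include is not known.

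RefSeq promoter windows (GRCh38.p14) were searched for stress-related motifs on both strands, in the 250 bases before the start site, for 8 of the 10 members. SRSF2 and TRA2A had no window. The motifs were both forms of the heat shock element, GAANNTTC and TTCNNGAA, the cyclic AMP response element TGACGTCA and the core TGACNNNGC of the antioxidant response element. CLK1, whose level rose with WA, and CLK3, whose level fell, both hold the same match to the last motif, GCTGCGTCA on the strand shown, 53 to 45 bases before the start of CLK1 shown here (150 to 142 bases before its other start in the table) and 48 to 40 bases before the second start of CLK3. They are shown with SRSF3, which rose in MM1R and holds none of the motifs. The windows are chr2:200864659-200864908 (minus strand) for CLK1, chr15:74615586-74615835 (plus strand) for CLK3 and chr6:36594112-36594361 (plus strand) for SRSF3, written from 5′ to 3′ with the match in capitals.
CLK1: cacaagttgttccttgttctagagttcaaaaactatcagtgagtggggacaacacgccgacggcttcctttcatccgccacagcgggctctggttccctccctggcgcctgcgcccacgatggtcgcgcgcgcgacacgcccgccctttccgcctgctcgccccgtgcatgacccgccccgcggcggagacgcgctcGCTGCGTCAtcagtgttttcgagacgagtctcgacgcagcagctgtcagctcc
CLK3: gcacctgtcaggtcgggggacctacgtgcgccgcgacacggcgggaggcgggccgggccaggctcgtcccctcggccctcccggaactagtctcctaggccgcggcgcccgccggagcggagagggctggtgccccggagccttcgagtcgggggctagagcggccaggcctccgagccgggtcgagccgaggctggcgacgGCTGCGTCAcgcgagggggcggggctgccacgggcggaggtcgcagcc
SRSF3: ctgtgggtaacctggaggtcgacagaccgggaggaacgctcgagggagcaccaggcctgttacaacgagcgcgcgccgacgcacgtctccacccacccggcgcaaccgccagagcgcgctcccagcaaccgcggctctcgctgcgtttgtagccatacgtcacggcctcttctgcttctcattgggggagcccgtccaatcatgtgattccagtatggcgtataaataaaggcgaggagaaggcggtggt

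The core TGACNNNGC was present in 10.9% of 35116 promoter windows of the same length. It was also matched in TRA2B, by GCGGGGTCA and GCCGCGTCA, which overlapped no other motif searched. A heat shock element of either form was present in 11.6% and TGACGTCA in 1.65% of all windows, and neither was matched in the windows of the members. The window before the first start of CLK3 held none of the motifs, and which start these cells use is not known. These are matches of letters, and their part in the changes with WA was not tested.

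Other genes of the pathway were counted from lists of splicing regulators, to be read against 7.55% higher and 6.46% lower of all tested genes in MM1R and 6.25% and 4.23% in MM1S. With the block on passage, 29.1% and 24.1% passed in all in edgeR, and 3424 and 2930 of the 14085 genes in DESeq2. The shares higher and lower were not counted with the block. The directions of the blocked counts below thus have no such background. Of the listed genes, SRSF12, DYRK1B, U2AF1, DHX16 and HNRNPH2 had too few reads to be tested. They had at most 3, 2, 7, 6 and 2 reads per library, in that order, and the reason was not tested. Of 7 other SR proteins tested, 1 rose and 0 fell in each line, with a median log2 fold change of -0.18 in both MM1R and MM1S. The one that rose was SRSF5, with 0.44 in MM1R (SE 0.12, adjusted p = 0.021 by edgeR) and 0.53 in MM1S (SE 0.12, adjusted p = 0.011). SRSF5 was at 101 to 129 CPM in untreated MM1R and 148 to 169 with WA, and at 105 to 121 in untreated MM1S and 149 to 173 with WA. Its call was lost in MM1R without the untreated culture of passage 6 (adjusted p = 0.13), without the WA culture of passage 4 (0.067) or 7 (0.06) and in a fit of the 6 MM1R libraries (0.051), and in MM1S without the untreated culture of passage 22 (0.062). Blocked on passage in edgeR, SRSF5 rose in both lines, while SRSF1 and SRSF4 fell in MM1R and SRSF4 and SRSF9 in MM1S (in DESeq2 also SRSF1). SRSF1, SRSF4 and SRSF9 are named for these counts after their values were seen.

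Of 9 other kinases, phosphatases and import factors of SR proteins, 1 fell in MM1R and 0 passed in MM1S. That gene was PRPF4B, a kinase of the tri-snRNP, with -0.66 on the log2 scale in MM1R (SE 0.19, adjusted p = 0.031 by edgeR) and -0.37 in MM1S (adjusted p = 0.23). Blocked on passage, in either tool, PRPF4B, SRPK1 and PPP1CC fell in both lines and DYRK1A rose in MM1R, so that 4 passed in MM1R and 3 in MM1S. SRPK1, a largely cytoplasmic kinase of SR proteins and like PPP1CC and DYRK1A named after its value was seen, had -0.46 in MM1R (adjusted p = 0.10 by edgeR with no block) and -0.27 in MM1S (adjusted p = 0.39).

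Of 26 other splicing factors with serine-arginine repeats, 2 rose and 4 fell in MM1R, and 0 rose and 1 fell in MM1S. RSRC2 (0.46, SE 0.11) and RBM39 (0.44, SE 0.11) rose in MM1R, while RNPS1 of the exon junction complex (-0.48, SE 0.14), U2AF2, which recognises the polypyrimidine tract (-0.38, SE 0.11), and SNRNP70 of the U1 particle (-0.38, SE 0.11) fell. LUC7L, named here after its value was seen, completed the count with -0.52 (SE 0.16, adjusted p = 0.044 by edgeR). SNRNP70 was the gene that fell in MM1S (-0.42, SE 0.11, adjusted p = 0.029). The call of SNRNP70 was lost under 11 alternatives of the processing in MM1R and kept under 9. In MM1S it was lost under 5 and kept under 15. Blocked on passage, 3 rose and 6 fell in MM1R in either tool, and in MM1S 0 rose and 6 fell in edgeR and 1 rose and 6 fell in DESeq2.

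Among 20 hnRNP proteins, which often oppose SR proteins at splice sites, 0 rose and 4 fell in MM1R and 0 rose and 1 fell in MM1S. HNRNPK had -0.48 in MM1R (SE 0.12) and -0.41 in MM1S (SE 0.12, adjusted p = 0.049 by edgeR), and HNRNPAB (-0.59), HNRNPF (-0.44) and PTBP1 (-0.45) fell in MM1R. Blocked on passage, in either tool, 6 hnRNP genes fell in each line and 0 rose, namely these 4 with HNRNPA0 and HNRNPA1, the last 2 named after their values were seen. The call of HNRNPK in MM1S was lost under 12 alternatives of the processing and kept under 8. In MM1R its call was lost under 5 and kept under 15. Of 14 factors of nonsense-mediated decay, 0 rose and 1 fell in MM1R and 0 passed in MM1S. The gene that fell was EIF4A3 of the exon junction complex, with -0.61 in MM1R (SE 0.17, adjusted p = 0.033 by edgeR) and -0.53 in MM1S (adjusted p = 0.069). Blocked on passage, in either tool, 1 rose and 2 fell in MM1R and 0 rose and 2 fell in MM1S, EIF4A3 being among the latter in both lines, and DESeq2 with no block called 2 in each line. The median log2 fold change of these factors was 0.10 in MM1R and 0.08 in MM1S.

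The counts of these lists in MM1R changed with single libraries left out. So did the count over all tested genes, which was 1973 with all 12 libraries. Without the untreated MM1R culture of passage 6, 0 genes passed in any of the 5 lists, and 950 of all tested genes passed. Without the WA culture of passage 7, 1 factor with serine-arginine repeats passed and 0 genes of the other 4 lists, with 1074 of all tested genes. Without that of passage 4 it was 3 and 0, with 1297. Over all libraries left out in turn, the counts in MM1R were 0 to 3 for other SR proteins, 0 to 3 for the other kinases, phosphatases and import factors, 0 to 7 for factors with serine-arginine repeats, 0 to 5 for hnRNP proteins and 0 to 2 for decay factors. In MM1S they were 0 for the kinases, phosphatases and import factors and 0 or 1 for each of the other 4 lists. Over the same fits, 950 to 2396 of all tested genes passed in MM1R and 726 to 1621 in MM1S.

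**Figure D5:**
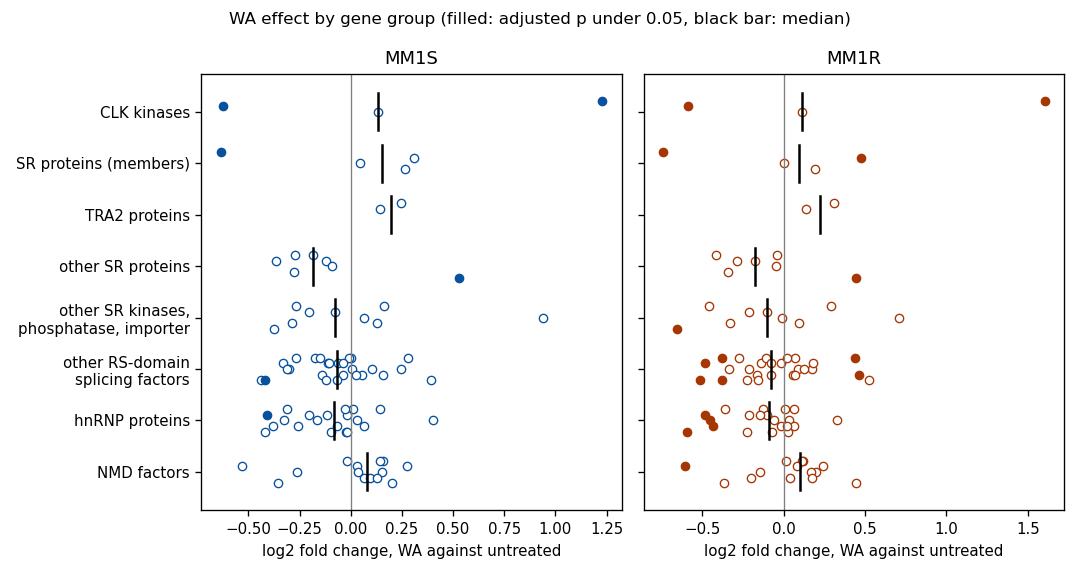
Log2 fold change of WA against untreated cultures for each tested gene of 8 gene groups in MM1S and MM1R, with filled points where the adjusted p by edgeR was under 0.05 and a bar at the group's median. CLK1 lies outside the range of all other genes shown in both lines, and the medians of the groups lie between -0.18 and 0.22.

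For each member the gene with the most similar log2 CPM over the 12 libraries was named as a description, since the libraries share treatment and scaling. These were ARID4A for CLK1 (Pearson's r = 0.988), CDK5R1 for CLK3 (0.977), NAA15 for SRSF2 (0.987), LAP3 for SRSF3 (0.967), DGCR8 for TRA2A (0.946), SRSF7 with ERCC8 (0.948), TRA2B with ITGB3BP (0.939), CLK4 with ATG4B (0.924) and SRSF6 with TMEM231 (0.911). ARID4A itself rose by 1.25 with WA in MM1R on the log2 scale (adjusted p = 0.0058 by edgeR) and by 0.91 in MM1S (adjusted p = 0.034). Among the members, CLK1 and SRSF2 had r = -0.88 and SRSF3 and SRSF7 r = 0.78 over the same libraries.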

How the data were processed

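RNA from 12 cultures was sequenced at 2 × 50 bp on a BGISEQ-500. The authors checked reads with FastQC 0.11.5, mapped them to hg19 with STAR 2.7.3a and deposited raw counts per gene. The annotation and strand setting are not given in the sources used here. A second deposited table of normalized values was not used. Members, lists and tests were chosen with earlier results of these data known.

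Genes were kept with edgeR's filterByExpr (minimum count 10), libraries were scaled with TMM, and 1 quasi-likelihood fit of all 12 libraries in 4 groups was made (R 4.3.3, edgeR 4.0.16), with Benjamini-Hochberg adjustment over 14085 genes. The script was tested on simulated data. An adjusted p of 0.05 was used for WA and the interaction, and 0.01 with a log2 fold change of 1 between lines. Total counts were 17625110 to 19368343 (median 18555625). Replicates are described as biologically independent, and the chi-square between the counts of any 2 replicates was 8.36 to 47.1 per degree of freedom, so that each library was counted once.

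Passage numbers, from the labels, pair the untreated and WA cultures of a line. Deviations from the group mean correlated at 0.221 to 0.744 in the 6 pairs of the same passage and at -0.653 to 0.419 between passages. The deviations cancel out within each group by construction, so the correlations between passages are partly fixed by those of the same passage.

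Named genes were the members, up to 5 genes with the smallest p among those called in each list and line, and for each member the gene with the highest Pearson's r, with exceptions marked where they occur. Alternatives were DESeq2 size factors, 2 other filters, DESeq2 1.42.0, the compared libraries only, passage as replicate block in either tool, other limits, and each library left out. Coordinates are those of GENCODE on GRCh37, except for promoters.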

Additional observations from a re-analysis of the deposited data

How the results depend on the processing

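Of 855 values of members under the alternatives, 767 kept their direction and their side of the threshold, 8 newly passed, 17 no longer passed and 63 changed sign. All values that changed sign belonged to members that did not pass in that comparison. CLK4, with 296 to 564 reads per library, had the fewest reads of the tested members, and its 95% intervals were the widest after those of CLK1. The cause of each change below was not tested.

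With the replicate block in edgeR, 5 members passed in MM1S in place of 3, and 4094 genes passed in MM1R and 3399 in MM1S in place of 1973 and 1476 (3424 and 2930 by DESeq2 with the block). At an adjusted p of 0.01, 3 members passed in MM1R and 1 in MM1S, and 812 genes passed in MM1R and 556 in MM1S. With any library left out, 3 to 5 members passed in MM1R and 1 to 3 in MM1S, with 950 to 2396 genes in MM1R and 726 to 1621 in MM1S. The single member was CLK3, without the untreated MM1S culture of passage 22 or 23 or the MM1S culture with WA of passage 16 or 23. Calls of members and counts of lists that the replicate block changed are given beside them.

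Between the lines, 419 genes passed untreated and 428 with WA. These counts were 811 and 819 with no filter, 234 and 222 when every library had to hold at least 10 reads, 1681 and 1690 at an adjusted p of 0.05 with no limit on the fold change, and 268 to 537 and 264 to 649 with any library left out. For the interaction, 11 genes passed with no filter, 1 by DESeq2 and 6 by DESeq2 with the replicate block, and 0 members passed in any fit.

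For SRSF6 in MM1R, the log2 fold change was -0.009 with DESeq2 size factors and by DESeq2, -0.010 with the replicate block in edgeR, -0.023 with no filter, -0.017 with only the libraries compared, -0.020 with the replicate block in DESeq2, and -0.14 to 0.12 with a library left out. With a library left out it was -0.062 to 0.12 for SRSF6 in MM1S, and -0.033 to 0.30 in MM1R and -0.10 to 0.36 in MM1S for CLK4. Between untreated lines, with a library left out, it was -0.050 to 0.026 for CLK3 (0.001 with only the libraries compared), -0.23 to 0.19 for CLK4 and -0.17 to 0.003 for SRSF7. Between lines with WA it was -0.44 to 0.38 for CLK1, -0.045 to 0.087 for CLK3, -0.20 to 0.18 for CLK4 and -0.050 to 0.084 for TRA2A. For the interaction it was -0.20 to 0.64 for CLK1, -0.030 to 0.10 for CLK3, -0.25 to 0.21 for CLK4 (0.002 when every library had to hold at least 10 reads), -0.26 to 0.079 for SRSF2, -0.18 to 0.080 for SRSF6, -0.18 to 0.037 for SRSF7, -0.002 to 0.13 for TRA2A and -0.10 to 0.062 for TRA2B, which was at 0.001 with DESeq2 size factors and by DESeq2, 0.024 under the filter of at least 10 reads and 0.008 by DESeq2 with the replicate block.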
